A study of Mus musculus with 5 samples.

Results

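The fibrillar collagen genes Col1a1, Col1a2, Col3a1, Col5a1 and Col5a2 were followed in the circulation of mouse embryos, cell by cell. They are 5 of the 24411 genes of the count table, chosen with earlier results of these data known. Another 6 fibrillar collagen genes of the table were read as a separate list. All embryos were wild type C57BL/6, at embryonic day 10 (E10, 3 batches) or embryonic day 9.5 (E9.5, 2 batches). Per the labels, blood was drawn from the heart, the sort kept cells without the blood surface markers TER119, CD41, CD43 and CD45, and single cells were then picked with a mouth pipette. The libraries carried a unique molecular identifier (UMI), a tag that counts molecules of polyadenylated RNA. Cells with at least 1000 genes and 30000 UMIs were kept, 294 of 480 wells, and were split by 2 transcripts measured as CPM, the UMIs of a gene per 1000000 UMIs of the cell. The 126 Prrx1 cells had Prrx1, a transcription factor gene of limb and head mesenchyme, at 100 CPM or more. The 28 Sox10 cells had Sox10, a transcription factor gene of neural crest and its glia, at 50 CPM or more. The rest comprised 138 cells below both limits, and 2 cells past both were left out. The members were not used to form these classes.

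Fibrillar collagens are made as long chains that wind in triplets, are secreted with end pieces, and assemble into the banded fibrils that give embryonic connective tissue its strength. Type I collagen joins α1 chains from Col1a1 with an α2 chain from Col1a2, type III is built from Col3a1 alone, and type V joins chains from Col5a1 and Col5a2 and starts and thins the fibrils of type I. In the embryo these genes are known from mesenchyme, the loose tissue that forms dermis, bone, tendon and vessel walls.

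The 5 genes lie at 4 places in the mouse genome (GRCm38, GENCODE vM21). Col1a1 spans chr11:94936224-94953042 on the plus strand with 51 exons in the transcript examined. Col1a2 spans chr6:4504814-4541544 on the plus strand with 52 exons. Col3a1, at chr1:45311538-45349706 on the plus strand with 51 exons, and Col5a2, at chr1:45374321-45503282 on the minus strand with 54 exons, are neighbours, 24614 bases apart with 0 genes wholly between them. Col5a1 spans chr2:27886425-28039514 on the plus strand with 66 exons. Promoter windows of the same length were found for 3 of the 5 members in the RefSeq table of build GRCm38.p6. These 3 are shown because the RefSeq table held no window for Col1a1 and Col5a2. Each runs from 250 bases before the RefSeq start site to 50 after it on the plus strand, at chr6:4505368-4505667, chr1:45311288-45311587 and chr2:27886175-27886474, and capitals mark the motifs searched on both strands.
Col1a2: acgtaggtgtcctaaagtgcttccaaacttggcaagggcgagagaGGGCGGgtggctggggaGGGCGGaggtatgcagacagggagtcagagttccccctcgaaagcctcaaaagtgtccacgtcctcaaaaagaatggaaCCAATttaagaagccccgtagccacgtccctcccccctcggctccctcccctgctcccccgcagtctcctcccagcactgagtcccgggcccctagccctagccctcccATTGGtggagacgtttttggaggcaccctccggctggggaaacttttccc
Col3a1: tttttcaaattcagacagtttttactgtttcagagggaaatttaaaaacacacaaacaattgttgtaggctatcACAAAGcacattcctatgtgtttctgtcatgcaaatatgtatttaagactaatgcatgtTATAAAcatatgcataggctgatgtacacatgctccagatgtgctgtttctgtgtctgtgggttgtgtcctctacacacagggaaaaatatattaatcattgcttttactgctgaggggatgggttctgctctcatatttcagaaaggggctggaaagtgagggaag
Col5a1: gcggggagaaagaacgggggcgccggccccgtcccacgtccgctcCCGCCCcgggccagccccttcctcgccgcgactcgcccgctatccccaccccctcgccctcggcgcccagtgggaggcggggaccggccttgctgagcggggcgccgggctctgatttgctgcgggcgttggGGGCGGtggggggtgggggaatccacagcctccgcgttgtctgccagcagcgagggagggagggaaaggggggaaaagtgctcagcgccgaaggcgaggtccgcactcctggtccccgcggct

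The motifs searched were the box CCAAT, the box of many start sites TATAAA, the core GGGCGG of sites for Sp proteins, the core TAATTA of homeodomain sites and the core ACAAAG of sites for Sox proteins, each also as its reverse complement. Positions count from the start site at 1. In Col1a2, CCAAT began at -109, its reverse complement ATTGG at 1, and GGGCGG at -205 and -188. The Col3a1 window held TATAAA at -117 and ACAAAG at -176. In Col5a1, GGGCGG began at -73 and its reverse complement CCGCCC at -205. TAATTA was in none of the 3 windows. Of 32851 promoter windows of this length, 37.4% held CCAAT on either strand. The share was 13.6% for TATAAA, 35.7% for the core GGGCGG, 5.29% for that of homeodomain sites and 18.7% for that of Sox sites, and a match is a description of letters only.

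Kept cells held 31294 to 1407021 UMIs. The Prrx1 cells numbered 52, 16 and 22 in E10 replicates 1, 2 and 3 and 15 and 21 in E9.5 replicates 1 and 2. The Sox10 cells numbered 9, 2 and 9 at E10 and 3 and 5 at E9.5, and the 2 cells of E10 replicate 2 were too few for a sum in the tests. The summed level of the 12 mesenchyme markers was 812 to 1601 CPM in Prrx1 cells, 52.9 to 218 CPM in Sox10 cells and 81.6 to 545 CPM in the rest, and that list includes Prrx1. The 8 neural crest and glia markers, which include Sox10, summed to 63.0 to 247 CPM in Prrx1 cells, 532 to 1349 CPM in Sox10 cells and 19.9 to 112 CPM in the rest. Erbb3, one of these markers, stood at 0 in the Sox10 cells, and the 8 neuron markers reached 88.1 to 4737 CPM there, so the class is called by its gene. The rest was mixed, with erythroid markers at 10730 to 106100 CPM, and in E9.5 replicate 1 the 8 endothelial markers summed to 1871 CPM, against 12.4 to 24.5 CPM in the rest of the other batches. Haemoglobin genes took a median of 5.65% of the UMIs of Prrx1 cells in E10 replicate 2 and 0.0350% to 1.56% in the other batches. In Prrx1 cells the heart and smooth muscle markers summed to 726 CPM in E10 replicate 3, against 22.3 to 261 CPM in the other batches. Epithelial markers summed to 299.7 CPM in the Prrx1 cells of E9.5 replicate 1, the batch with the highest Col1a1 sum, against 22.2 to 42.2 CPM in the other batches. Neuron markers reached 90.6 to 3221 CPM in the rest. The 6 pluripotent or germ cell markers summed to 855 to 2028 CPM in every class of E10 replicate 1, against 0 to 4.97 CPM elsewhere. The part of these other transcripts in the results below was not tested. All 96 well numbers recur in the 5 batches. No columns with UMIs were identical, and 23 wells whose best match in another batch was their same-numbered well, at under 10% of its UMIs, all lay under 30000 UMIs. The labels do not say whether batches came from separate litters, so p-values measure the spread between these batches.

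Of the type I collagen pair, Col1a1 was high in Prrx1 cells and low in Sox10 cells, while Col1a2 was abundant in both. Levels are UMIs summed over the cells of a class and batch, as CPM. In Prrx1 cells Col1a1 stood at 143, 17.3 and 198 CPM in the 3 E10 batches and 259 and 118 CPM in the 2 E9.5 batches. In Sox10 cells it stood at 19.2 and 3.61 CPM in E10 replicates 1 and 3 and at 18.5 and 0.953 CPM at E9.5, the last from 1 UMI. Prrx1 cells were higher in each of the 4 batches that had both sums, although the Prrx1 sum of E10 replicate 2 lay within the Sox10 range. The log2 fold change was 4.13 (SE 0.70, Benjamini-Hochberg adjusted p 0.00164 in the quasi-likelihood test of edgeR), and the call held under the 18 alternatives run. Col1a2, for the second chain, stood at 718, 128.5 and 409.7 CPM in the Prrx1 cells of the E10 batches and 653 and 80.02 CPM in those of E9.5. In Sox10 cells it stood at 371 and 445 CPM at E10 and 805 and 202 CPM at E9.5. The classes overlapped throughout, with a log2 fold change of -0.22 (SE 0.28, adjusted p 0.745 by the same edgeR test).

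**Figure D1:**
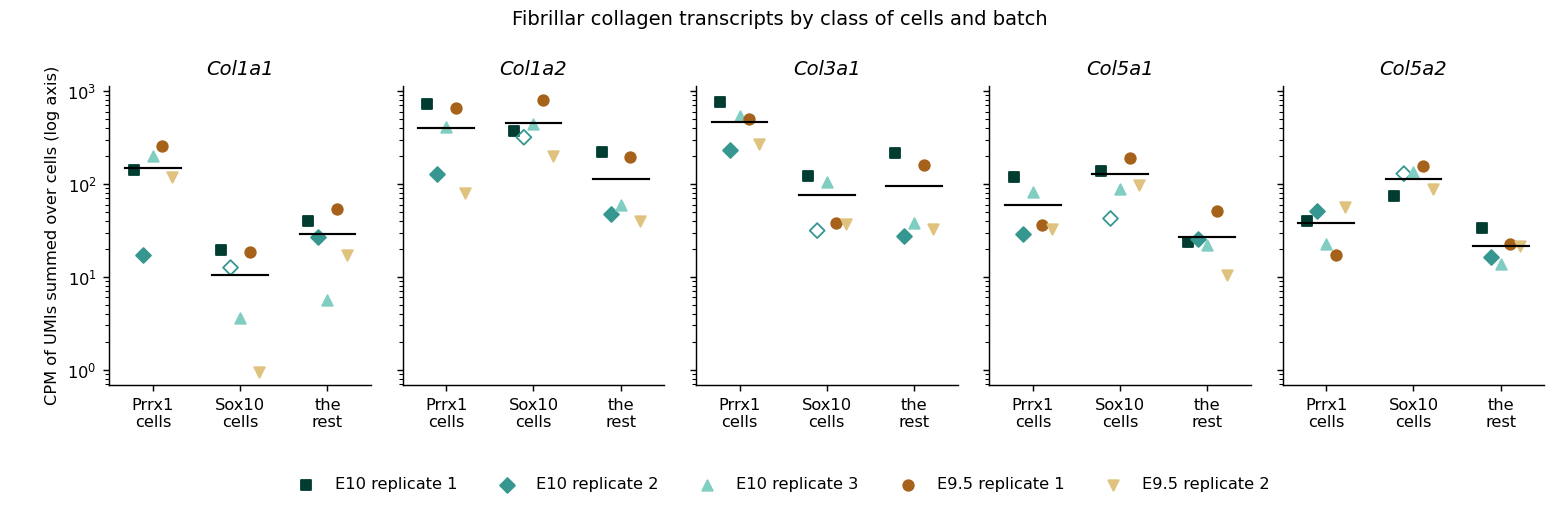
CPM of the UMIs summed over cells (log axis) for each member in Prrx1 cells, Sox10 cells and the rest. Each symbol is 1 batch, the line is the mean over batches, and the open symbol is the sum of 2 Sox10 cells that was left out of the mean and the tests. Col1a1 of Sox10 cells sits at 0.953 to 19.2 CPM in the batches tested, while Col1a2 of the same cells sits at 202 to 805 CPM.

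Type III collagen followed the mesenchymal class. Col3a1, the gene of its single chain, stood at 769.5, 233 and 538 CPM in the Prrx1 cells of E10 replicates 1, 2 and 3 and at 495 and 272 CPM in those of E9.5. Sox10 cells had 123 and 104 CPM at E10 and 38.2 and 37.2 CPM at E9.5. The lowest Prrx1 sum thus lay above the highest Sox10 sum. The log2 fold change was 2.87 (SE 0.36), higher in 4 of 4 batches (adjusted p 0.000109, edgeR), and this call also held under the 18 alternatives.

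Of the type V genes, Col5a2 was lower in Prrx1 cells. This gene of the α2 chain stood at 40.3, 51.5 and 22.7 CPM in the Prrx1 cells of the E10 batches and 17.3 and 56.4 CPM in those of E9.5. Sox10 cells had 73.7 and 134 CPM at E10 and 156 and 87.7 CPM at E9.5, above every Prrx1 sum. The log2 fold change of -1.70 (SE 0.43) passed with an adjusted p of 0.0254 (edgeR), but the adjusted p was 0.114 without E9.5 replicate 1, 0.183 without E10 replicate 3 and 0.0615 with the Sox10 limit at 100 CPM, in a range of 0.000887 to 0.183 over all alternatives. Col5a1, for the α1 chain that starts fibrils, stood at 118.5, 29.2 and 81.3 CPM in Prrx1 cells at E10 and 36.3 and 32.8 CPM at E9.5. In Sox10 cells it stood at 138 and 88.1 CPM at E10 and 189 and 98.2 CPM at E9.5. It was lower in Prrx1 cells in 4 of 4 batches and did not pass (log2 fold change -1.07, SE 0.40, adjusted p 0.143, edgeR), and only the fit without a filter on low counts called it, with an adjusted p of 0.0331 in a range of 0.0331 to 0.345.

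In all, 2 of the 5 members were called higher and 1 lower in Prrx1 cells than in Sox10 cells. Of the 11847 genes tested, 5.41% were called, 2.89% higher and 2.52% lower. The median log2 fold change was -0.22 over the members and 0.10 over all genes tested.

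**Figure D2:**
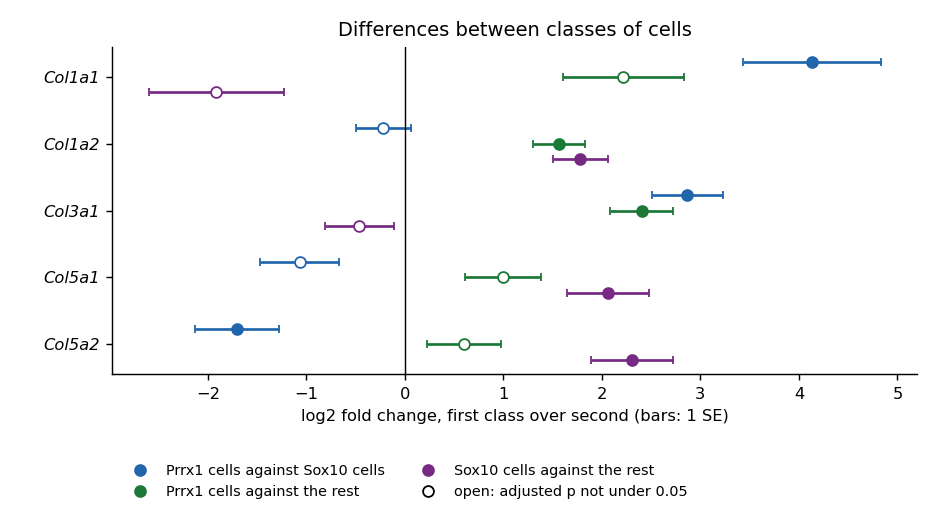
Log2 fold changes of the members between classes of cells, with bars of 1 SE. Filled points have an adjusted p under 0.05 (edgeR), and open points do not. Col1a1 at 4.13 and Col5a2 at -1.70 lie on opposite sides of 0 in Prrx1 cells against Sox10 cells.

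Against the rest, Prrx1 cells held more Col3a1 and Col1a2. Col3a1 stood at 216, 27.4 and 37.7 CPM in the rest at E10 and 159 and 33.1 CPM at E9.5, each below the Prrx1 cells of its batch (log2 fold change 2.40, SE 0.32, adjusted p 0.000412, edgeR). Col1a2 of the rest stood at 222, 47.9 and 58.9 CPM at E10 and 197 and 39.7 CPM at E9.5, also below the Prrx1 cells in 5 of 5 batches (log2 fold change 1.56, SE 0.26, adjusted p 0.00204, edgeR). The Col3a1 sums of the classes did not overlap, while those of Col1a2 overlapped across batches. Both calls rest on the comparison within batches, and without the batch block the adjusted p was 0.0530 for Col3a1 and 0.173 for Col1a2.

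Col1a1 of the rest stood at 39.5, 26.9 and 5.62 CPM at E10 and 54.2 and 17.0 CPM at E9.5. Prrx1 cells were higher in 4 of 5 batches, with a log2 fold change of 2.21 (SE 0.61) that missed the threshold (adjusted p 0.0511, edgeR). The exception was E10 replicate 2, the batch with the most haemoglobin transcript in Prrx1 cells, and without it the adjusted p was 0.00703 in a range of 3.04e-07 to 0.210 over the alternatives. The part of that transcript in the low value was not tested. In E10 replicate 2 the highest cell of the rest had 823 CPM of Col1a1. The median over cells there was 6.59 CPM in the rest and 10.2 CPM in Prrx1 cells. The part of that cell in the exception was also not tested. Col5a1 (log2 fold change 1.00, SE 0.38) and Col5a2 (0.60, SE 0.38) were higher in Prrx1 cells in 4 of 5 batches each and did not pass, with adjusted p of 0.169 and 0.455 by the same edgeR test. Of the 5 members, 2 were called, both higher, against 4.1% of 11847 genes called, 1.68% higher and 2.42% lower. With cells at Alas2 of 500 CPM or more left out of the rest, Col3a1 and Col1a2 were still called. Alas2 encodes the first enzyme of haem synthesis in red cells. The planned limit of 100 CPM marked 50 of 54 cells of the rest in E10 replicate 2. It also marked 14 of 16 Prrx1 cells and 2 of 2 Sox10 cells there, so the limit of 500 CPM was added after the data were seen. Cells past either limit were left out of the rest only.

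Sox10 cells were also set against the rest, a comparison added after the data were seen. Col5a2 was higher in Sox10 cells (log2 fold change 2.31, SE 0.41, adjusted p 0.00258, edgeR), with 73.7 to 156 CPM in Sox10 cells and 13.8 to 33.4 CPM in the rest. Col5a1 was higher at 88.1 to 189 CPM, against 10.5 to 50.6 CPM (log2 fold change 2.06, SE 0.42, adjusted p 0.00601, edgeR), and without E9.5 replicate 2 its adjusted p was 0.0536, in a range of 1.06e-06 to 0.0536. Col1a2 was higher in 4 of 4 batches (log2 fold change 1.78, SE 0.28, adjusted p 0.00118, edgeR), which became 0.0761 without the batch block. Col3a1, at -0.46 (SE 0.35), did not pass, and Col1a1, at -1.92 (SE 0.68), was lower in Sox10 cells in 4 of 4 batches with an adjusted p of 0.0951 (edgeR), in a range of 0.000163 to 0.294, and 4 of 19 alternatives called it. Here 3 of 5 members were called, all higher, against 8.01% of 11847 genes called, 3.31% higher and 4.7% lower. The 3 comparisons share their sums and are not independent of each other.

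The mean levels fell into different orders in Prrx1 and Sox10 cells. In Prrx1 cells Col3a1 led with 462 ± 218 CPM (SD, n = 5 batches) and Col1a2 followed with 398 ± 292 CPM, which overlap. Col1a1 followed with 147 ± 90.6 CPM, Col5a1 with 59.7 ± 39.1 CPM and Col5a2 with 37.6 ± 17.3 CPM. Neighbours in this order overlapped in range, while the lowest Col3a1 sum exceeded the highest sums of Col5a1 and Col5a2. In Sox10 cells Col1a2 led with 456 ± 254 CPM (SD, n = 4 batches), Col5a1 and Col5a2 stood at 128 ± 45.7 and 113 ± 38.6 CPM, Col3a1 at 75.6 ± 44.5 CPM and Col1a1 at 10.6 ± 9.65 CPM. There the range of Col1a2 lay above that of Col5a1, the ranges of Col5a1, Col5a2 and Col3a1 overlapped from one to the next, and that of Col1a1 lay below them all. A UMI marks 1 molecule, so these levels were not divided by transcript length.

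The balance within the type I pair, taken from the sums tested above, showed the same split between Prrx1 and Sox10 cells within each batch. In Prrx1 cells there were 0.199, 0.135 and 0.483 UMIs of Col1a1 for each UMI of Col1a2 in the E10 batches and 0.397 and 1.47 in the E9.5 batches. In Sox10 cells the ratio was 0.0519 (95% exact binomial interval 0.0407 to 0.0654) and 0.00811 (0.00349 to 0.0161) in E10 replicates 1 and 3. It was 0.0230 (0.0134 to 0.0371) in E9.5 replicate 1 and 0.00472 (0.000119 to 0.0266) in E9.5 replicate 2, where Col1a1 had 1 UMI. These intervals cover counting error only. The ratio was higher in Prrx1 cells in 4 of 4 batches, by 5.06 ± 2.69 on the log2 scale (SD, n = 4), with p = 0.125 in a two-sided exact sign-flip permutation test, the smallest that 4 batches allow. In the 2 Sox10 cells of E10 replicate 2, which entered no test, it was 0.0396. The rest had ratios of 0.178, 0.561 and 0.0954 in the E10 batches and 0.275 and 0.429 at E9.5. Prrx1 cells were higher than the rest in 4 of 5 batches (p = 0.4375, exact sign-flip permutation), with E10 replicate 2 the exception. Sox10 cells were lower than the rest in each of the 4 batches tested (p = 0.125, exact sign-flip permutation).

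The neighbouring genes Col3a1 and Col5a2 also parted. Prrx1 cells had 19.1, 4.52 and 23.7 UMIs of Col3a1 for each of Col5a2 in the E10 batches and 28.7 and 4.82 at E9.5. Sox10 cells had 1.67 and 0.777 at E10 and 0.245 and 0.424 at E9.5, so Col5a2 outnumbered Col3a1 in 3 of these 4 sums. The ratio was higher in Prrx1 cells than in Sox10 cells in 4 of 4 batches (p = 0.125, exact sign-flip permutation) and than in the rest in 5 of 5 (p = 0.0625, exact sign-flip permutation), in both cases the smallest p the design allows. The ratio of Col5a1 to Col5a2 was higher in Prrx1 cells than in Sox10 cells in 3 of 4 batches (p = 0.5, exact sign-flip permutation). These are among 12 ratio comparisons, none of which could reach 0.05 in this design.

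**Figure D3:**
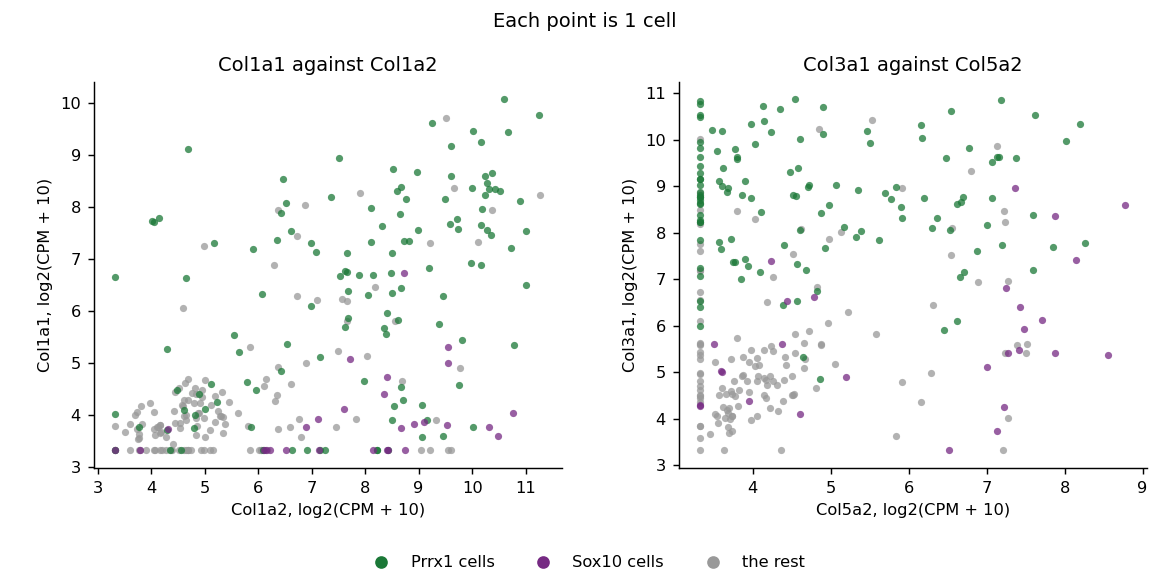
Levels per cell on the log2(CPM + 10) scale, Col1a1 against Col1a2 on the left and Col3a1 against Col5a2 on the right, with 1 point per cell colored by class. Sox10 cells spread along Col1a2 while Col1a1 stays at or under 96.3 CPM. Both genes on the right spread in Sox10 cells. Their Col5a2 has quartiles of 10.2 and 164 CPM and a highest value of 429 CPM. Their Col3a1 has quartiles of 17.7 and 83.8 CPM and a highest value of 494 CPM.

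Single cells showed how even these levels were. Col3a1 had a UMI in 126 of 126 Prrx1 cells after each cell was thinned to 30000 UMIs, in 71.4% of Sox10 cells and in 57.2% of the rest. In the 46 cells of the rest with Alas2 at 500 CPM or more, which serve as a background for free RNA, the share was 52.2%. Of these cells 23 came from E10 replicate 2 and 1 each from E10 replicate 1 and E9.5 replicate 1, while 52 of the 126 Prrx1 cells came from E10 replicate 1, so the pooled shares mix the batches differently. The background cells had a median depth of 371300 UMIs per cell, Prrx1 cells 275500 and Sox10 cells 273400. Col1a1 had a UMI in 65.9% of Prrx1 cells (95% exact interval 56.9% to 74.1%), 17.9% of Sox10 cells (6.06% to 36.9%), 28.3% of the rest and 10.9% of the background cells (3.62% to 23.6%). These intervals cover counting error only and not the spread between batches, and by batch the Sox10 share ran from 0% to 66.7%, in batches of 2 to 9 cells. Col1a2 had a UMI in 84.1%, 85.7%, 55.8% and 37.0% of Prrx1 cells, Sox10 cells, the rest and the background cells in this order. The shares for Col5a1 in the same order were 55.6%, 64.3%, 41.3% and 28.3%, and those for Col5a2 were 45.2%, 57.1%, 32.6% and 26.1%. Without thinning, Col1a1 had a UMI in 91.3% of Prrx1 cells, 60.7% of Sox10 cells and 80.4% of the background cells, so the unthinned share does not separate them.

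Among single Prrx1 cells Col3a1 ran between 19.2 and 1864 CPM with a median of 427 CPM. The median of Col1a1 was 93.8 CPM in Prrx1 cells, 3.52 CPM in Sox10 cells and 5.25 CPM in the rest. For Col5a2 these medians were 13.02, 124 and 6.46 CPM, and for Col5a1 40.7, 81.5 and 12.9 CPM. For Col3a1, 0 of 28 Sox10 cells (95% exact interval up to 12.3%, and up to 10.7% by the limit of 3 counts) and 7 of 138 cells of the rest exceeded the median of the Prrx1 cells of their batch. For Col5a2, 21 of 28 Sox10 cells and 49 of 138 cells of the rest did. The 7 cells of the rest with high Col3a1 came from all 5 batches, and their mesenchyme markers summed to a median of 640 CPM, against 105 CPM in the other 131 cells. In the 3 batches with at least 3 background cells, the summed levels of these cells averaged 4.87 CPM for Col1a1, 13.7 CPM for Col1a2, 15.4 CPM for Col3a1, 14.04 CPM for Col5a1 and 6.37 CPM for Col5a2. In E10 replicate 2 background Col5a1 stood at 25.1 CPM, near the 29.2 CPM of Prrx1 cells and 25.8 CPM of the rest. In E9.5 replicate 2 and E10 replicate 3 it stood at 8.09 and 8.94 CPM, against 32.8 and 81.3 CPM in Prrx1 cells. Background Col1a1 in E9.5 replicate 2 and E10 replicate 3 stood at 4.62 and 1.75 CPM, against 0.953 and 3.61 CPM in Sox10 cells. The single background cell of E10 replicate 1 had 14.4 CPM of Col1a2 and 27.3 CPM of Col3a1. That of E9.5 replicate 1 had 87.6 and 56.8 CPM, the last above the 38.2 CPM of the Sox10 cells of its batch. Col1a1 of these single cells stood at 0 and 14.2 CPM, against 19.2 and 18.5 CPM in the Sox10 cells of the same batches.

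The limits of the classes cut through a range of levels. The 8 cells with Prrx1 at 100 to 150 CPM had a median Col3a1 of 137 CPM, and the 16 cells at 50 to 100 CPM had 173 CPM. The 2 cells with Sox10 at 50 to 75 CPM had 3.78 and 60.5 CPM of Col1a2, and the 4 cells at 25 to 50 CPM had a median of 85.8 CPM. The 2 cells past both limits had Col1a2 at 1700 and 131 CPM and Col1a1 at 193 and 62.7 CPM.

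Within the Prrx1 cells, rank correlations between members differed from batch to batch. Spearman's rho across the 15 to 52 cells of a batch had a median over the batches of 0.50 for Col1a1 with Col1a2, from -0.12 to 0.90. It was 0.45 for Col1a1 with Col3a1, from 0.02 to 0.57, and 0.50 for Col1a2 with Col3a1, from -0.18 to 0.71. For Col5a1 with Col5a2, whose chains share a molecule, it was 0.09, from -0.09 to 0.16. In E9.5 replicate 2 the 3 pairs of type I and III genes lay below the type V pair. In the 28 Sox10 cells pooled over batches, rho was 0.44 for Col5a1 with Col5a2 and 0.50 for Col1a1 with Col1a2. Cells of a batch share a collection, and low counts weaken any correlation. The level of Prrx1 itself had rho of -0.28 to 0.38 with the members across the Prrx1 cells of a batch.

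Across all kept cells of a batch, the genes closest to the mean of the 5 members were sought among 10095 genes, by the mean over the 5 batches of Pearson's r on log2(CPM + 10). Only genes with a UMI in at least 20% of the Prrx1 cells were compared. Genes seen in fewer of these cells, such as those confined to other classes, could not appear. Among the 10 closest were Marcks (r 0.66), the growth factor gene Mdk (0.62), the proteoglycan gene Gpc3 (0.62), the PDGF receptor gene Pdgfra (0.58), Fstl1 (0.58), Cnn2 (0.56), the histone gene H2afv (0.56), the microfibril gene Mfap2 (0.56) and the chromatin gene Hmga2 (0.56). Taken singly, Col3a1 was closest to Prrx1 (r 0.71), the gene that set the class, and Col1a1 to Pdgfra (0.65), with Col3a1 second (0.61). For Col1a2 the closest was Marcks (0.52), followed by Col1a1 (0.50). Among the 10099 genes compared, a set limited by the Prrx1 cells in the same way, Col5a1 had no gene above 0.36 and Col5a2 none above 0.42. Sox10 correlated at 0.33 with Col5a2 and 0.22 with Col5a1, and at -0.23 with Col1a1 and -0.21 with Col3a1.

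No member was called between stages. In Prrx1 cells, E10 minus E9.5, the log2 fold change was 0.99 (SE 0.50) for Col5a1, 0.28 (SE 0.39) for Col3a1, 0.06 (SE 0.72) for Col1a2, -0.06 (SE 0.58) for Col5a2 and -0.81 (SE 0.67) for Col1a1, with adjusted p of 0.536 to 0.988 by edgeR. Over all genes 0 of 11528 (0%) were called by edgeR, 1180 reached p under 0.05 before adjustment, and DESeq2 called 120. In the rest the members ranged from -0.70 to -0.23 and 0 of 12981 genes (0%) were called, while 1227 reached p under 0.05 before adjustment and DESeq2 called 184. The test of the difference between the stage changes of both classes called 0 of 13088 genes (0%), while 593 reached p under 0.05 before adjustment and DESeq2 called 11, and members had values from -0.40 to 0.97. The spread between batches of 1 stage was wide, as Col1a2 in Prrx1 cells spanned 128.5 to 718 CPM at E10 and 80.02 to 653 CPM at E9.5. Each batch holds 1 stage, so other differences between batches and the stage cannot be told apart.

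**Figure D4:**
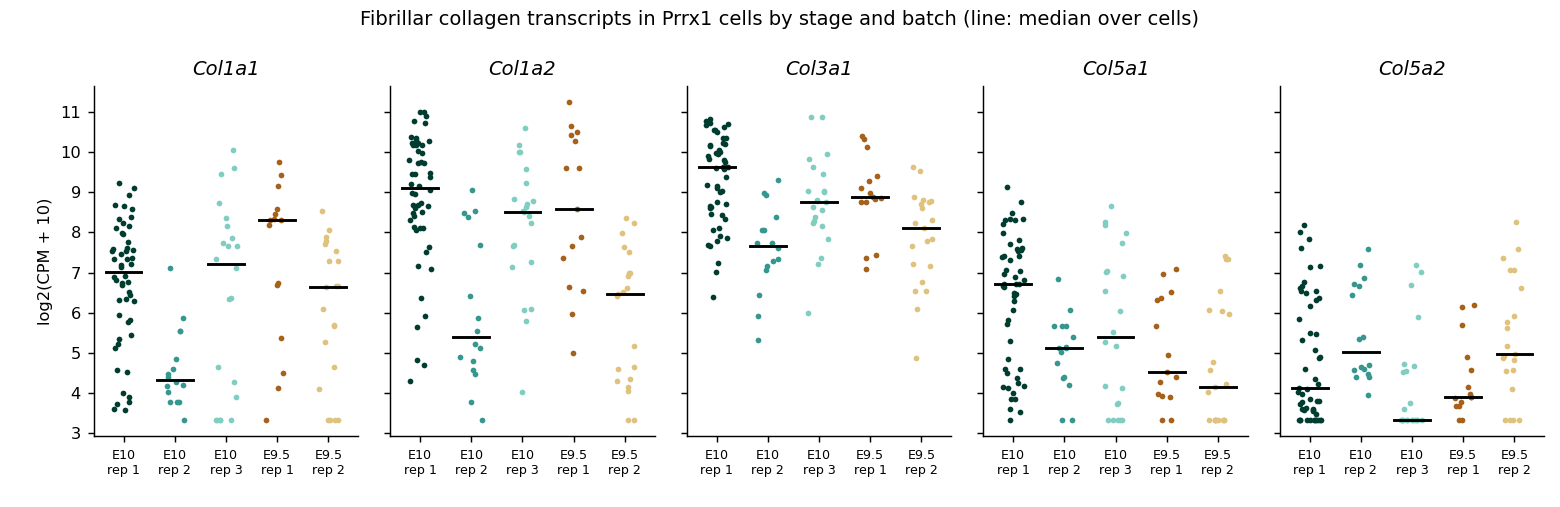
Members in single Prrx1 cells on the log2(CPM + 10) scale, by batch, with E10 left of E9.5 and a line at the median over cells. Medians differ between batches of 1 stage, as with Col1a1, whose cells in E10 replicate 2 had a median of 10.2 CPM against 121 and 140 CPM in the other E10 batches and 305 and 89.8 CPM in the E9.5 batches.

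The share of kept cells that were Prrx1 cells was 59.8%, 22.2% and 34.9% in the 3 E10 batches and 57.7% and 45.7% in the 2 E9.5 batches. It averaged 39.0% ± 19.1 (SD, n = 3) at E10 and 51.7% ± 8.51 (SD, n = 2) at E9.5, and the exact permutation test over batches, two-sided, gave p = 0.5, where 0.1 is the smallest it can give. Hand picking and the sort can set these shares.

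Genes that make, process and bind collagen were read from lists. Of 6 other fibrillar collagen genes, 4 were tested, and edgeR called 0 between Prrx1 and Sox10 cells, against 5.41% of all genes. Before adjustment 1 reached p under 0.05 in edgeR, and DESeq2 called 0. Col2a1 stood at 120.1 ± 72.2 CPM (SD, n = 5) in Prrx1 cells and 97.5 ± 54.5 CPM (SD, n = 4) in Sox10 cells. Against the rest, at 51.4 ± 45.2 CPM, Col2a1, the chain of cartilage collagen, was called higher in Prrx1 cells (log2 fold change 1.22, SE 0.33, adjusted p 0.0478, edgeR), a call lost without E9.5 replicate 1, E9.5 replicate 2 or E10 replicate 3, and with cells at Alas2 of 500 CPM or more left out of the rest.

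Of 22 tested genes that hydroxylate, fold and export collagen chains, 1 was called in Prrx1 against Sox10 cells, a share near the 5.41% of all genes. This was Plod1, a lysyl hydroxylase, lower in Prrx1 cells at 17.2 ± 7.95 CPM against 82.0 ± 12.9 CPM in Sox10 cells (log2 fold change -2.29, SE 0.40, adjusted p 0.00204, edgeR). The sums did not overlap, at 9.25 to 27.1 CPM in Prrx1 cells and 71.4 to 101 CPM in Sox10 cells, and the call held under the 18 alternatives run. Plod1 was also higher in Sox10 cells than in the rest (log2 fold change 2.01, SE 0.39, adjusted p 0.00442, edgeR). The collagen chaperone gene Serpinh1 did not pass, at 463 ± 246 CPM in Prrx1 cells and 364 ± 122 CPM in Sox10 cells. The list's median log2 fold change was 0.22, against 0.10 over all genes.

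Of 8 tested genes of propeptide cleavage and cross-linking, 2 were higher in Prrx1 cells than in Sox10 cells, against 2.89% of all genes. Pcolce, which enhances removal of the end piece of type I chains, stood at 155 ± 67.2 CPM in Prrx1 cells and 23.2 ± 21.2 CPM in Sox10 cells (log2 fold change 3.31, SE 0.40, adjusted p 7.73e-05, edgeR), a call that held under the 18 alternatives. Bmp1, the protease that removes that piece, stood at 64.5 ± 18.4 CPM in Prrx1 cells and 26.4 ± 21.2 CPM in Sox10 cells (log2 fold change 1.64, SE 0.47, adjusted p 0.0486, edgeR), and leaving out any 1 of the 5 batches ended that call, with adjusted p of 0.0644 to 0.179 in a range of 0.00972 to 0.284. Both were higher in Prrx1 cells than in the rest, Pcolce by 1.78 and Bmp1 by 2.05 on the log2 scale (adjusted p 0.00470 and 0.00893, edgeR), Pcolce losing the call without E9.5 replicate 2 and Bmp1 with cells at Alas2 of 500 CPM or more left out of the rest (adjusted p 0.0519 and 0.0566). The call of Pcolce against the rest also ended with cells at Alas2 of 100 CPM or more left out (adjusted p 0.0553, edgeR). Loxl2, a cross-linking enzyme, did not pass, at 61.9 ± 59.6 CPM in Prrx1 cells and 35.4 ± 24.8 CPM in Sox10 cells. The list's median was 1.24 for Prrx1 against Sox10 cells.

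The collagen receptors split between the classes. Of 6 tested, 2 were higher and 1 lower in Prrx1 cells than in Sox10 cells, against 2.89% and 2.52% of all genes. The receptor kinase gene Ddr2 stood at 53.3 ± 33.7 CPM in Prrx1 cells and 2.56 ± 2.55 CPM in Sox10 cells (log2 fold change 4.64, SE 0.76, adjusted p 0.00125, edgeR). Its relative Ddr1 stood at 5.32 ± 3.61 CPM in Prrx1 cells and 89.6 ± 54.3 CPM in Sox10 cells (log2 fold change -4.36, SE 0.67, adjusted p 0.000689, edgeR). Ranges did not overlap for either gene. In Prrx1 and Sox10 cells they were 21.9 to 109 and 0.903 to 6.33 CPM for Ddr2. For Ddr1 they were 1.39 to 10.9 and 31.1 to 162 CPM, and both calls held under the 18 alternatives. The Sox10 mean of Ddr2 lay under 3.27 and 2.86 CPM, the levels of 3 counts in the E9.5 Sox10 sums, so its fold change rests on few UMIs there. Mrc2, an uptake receptor, was higher in Prrx1 cells (log2 fold change 2.13, SE 0.60, adjusted p 0.0459, edgeR), and leaving out any 1 batch ended the call (adjusted p 0.0609 to 0.156, in a range of 0.00586 to 0.342). Itgb1, the shared β chain of collagen-binding integrins, did not pass, at 135 ± 49.3 CPM in Prrx1 cells and 212 ± 69.4 CPM in Sox10 cells. Against the rest, Ddr2 and Mrc2 were higher in Prrx1 cells by 3.06 and 2.31 on the log2 scale (adjusted p 0.00651 and 0.0163, edgeR), the call of Ddr2 ending without E9.5 replicate 2 or E10 replicate 3 and that of Mrc2 without E9.5 replicate 2 or E10 replicate 2, or with cells at Alas2 of 500 CPM or more left out.

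**Figure D5:**
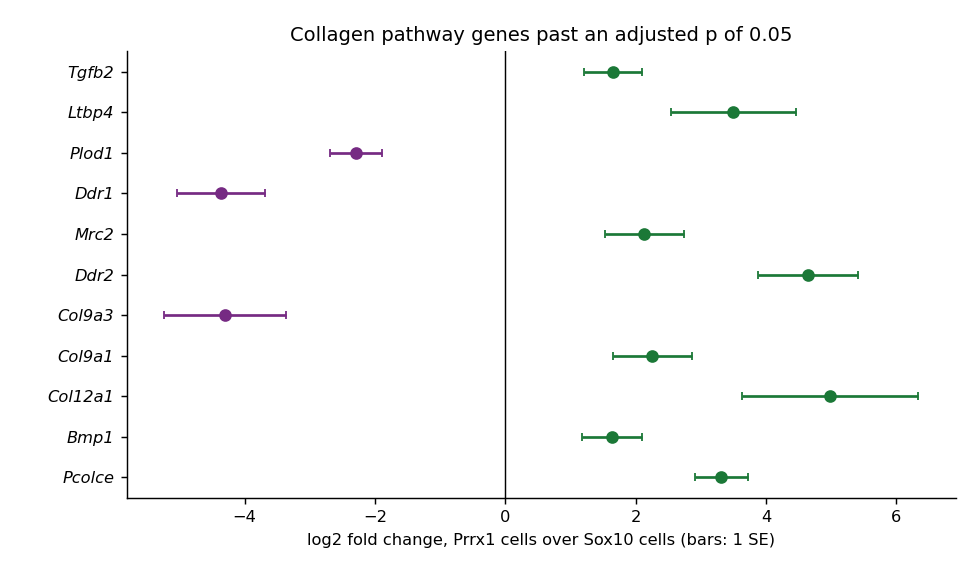
Log2 fold changes of Prrx1 cells over Sox10 cells for the genes of the collagen pathway lists with an adjusted p under 0.05 (edgeR), with bars of 1 SE. Ddr2 at 4.64 and Ddr1 at -4.36 lie on opposite sides of 0, Col12a1 at 4.98 is the highest, and 8 of the 11 genes lie above 0. The mean level of Col12a1 in Sox10 cells lay under that of 3 counts in any Sox10 sum tested, and the mean of Ddr2 under that of 3 counts in the E9.5 Sox10 sums.

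Among 13 tested fibril-associated collagens and small proteoglycans, 2 were higher and 1 lower in Prrx1 cells than in Sox10 cells. The shares of all genes were 2.89% and 2.52%. Col12a1, a fibril-surface collagen, was higher by 4.98 (SE 1.35), at 13.5 ± 11.6 CPM in Prrx1 cells and 0.625 ± 0.483 CPM in Sox10 cells, and Col9a1 by 2.26 (SE 0.61), with adjusted p of 0.0374 and 0.0368 (edgeR). The Sox10 mean of Col12a1 lay under 0.76 CPM, the level of 3 counts in the deepest Sox10 sum, so its fold change rests on few UMIs. Col9a3 was lower by -4.30 (SE 0.93, adjusted p 0.0103, edgeR) in 3 of 4 batches. Leaving out any 1 batch ended the call of Col12a1, and leaving out E9.5 replicate 2 or E10 replicate 3 ended those of Col9a1 and Col9a3, as did E9.5 replicate 1 for Col9a1 and E10 replicate 1 for Col9a3. Sparc, a collagen-binding matrix gene, did not pass, at 226 ± 97.0 CPM in Prrx1 cells and 357 ± 92.7 CPM in Sox10 cells.

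Of 13 tested TGF-beta genes, which are known to raise collagen transcription, 2 were higher in Prrx1 cells than in Sox10 cells. Of all genes tested, 2.89% were called higher. The ligand gene Tgfb2 was higher by 1.65 (SE 0.44, adjusted p 0.0372, edgeR) and Ltbp4, which binds the latent ligand, by 3.50 (SE 0.96, adjusted p 0.0409, edgeR). Leaving out E9.5 replicate 2, E10 replicate 1 or E10 replicate 3 ended either call, as did E9.5 replicate 1 for Tgfb2 and E10 replicate 2 for Ltbp4. The inhibitory Smad7 was higher in Prrx1 cells than in the rest by 1.52 (SE 0.41, adjusted p 0.0437, edgeR), lost without E9.5 replicate 1, E9.5 replicate 2 or E10 replicate 3. It was also lost with cells at Alas2 of 100 or 500 CPM or more left out of the rest (adjusted p 0.0564 and 0.143, edgeR). With the Prrx1 limit at 50 or 200 CPM its adjusted p was 0.0583 and 0.137 (edgeR). Of 7 tested genes of collagen degradation edgeR called 0 in Prrx1 against Sox10 cells, against 5.41% of all genes. Before adjustment 5 reached p under 0.05 in edgeR, and DESeq2 called 2. The protease inhibitor gene Timp3 was higher than in the rest both in Prrx1 cells, by 1.14 (SE 0.27, adjusted p 0.0221, edgeR), and in Sox10 cells, by 1.81 (SE 0.30, adjusted p 0.00153, edgeR), and the call in Prrx1 cells ended without E9.5 replicate 1, E9.5 replicate 2 or E10 replicate 3, or without the cells at high Alas2.

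The batch block also decided calls of these other genes. In Prrx1 against Sox10 cells, the adjusted p of edgeR without the block was 0.0545 for Col9a3, 0.0925 for Col12a1, 0.219 for Col9a1, 0.284 for Bmp1, 0.342 for Mrc2, 0.206 for Tgfb2 and 0.213 for Ltbp4, while Plod1, Pcolce, Ddr1 and Ddr2 were still called. In Prrx1 cells against the rest it was 0.437 for Col2a1, 0.154 for Bmp1, 0.225 for Pcolce, 0.267 for Mrc2, 0.0750 for Smad7 and 0.354 for Timp3, and in Sox10 cells against the rest 0.0698 for Timp3.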

How the data were processed

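The members and the gene lists were chosen with earlier results of these data known. The submitters' processing notes name CASAVA 1.8, TopHat2 2.0.12, HTSeq without a version, and the build mm10. The authors deposited whole-number UMI counts for 24411 genes and 95 spike-in rows in 480 wells, and spike-in rows were left out of all totals. Per the labels, the libraries followed a modified STRT-seq protocol with poly(T) priming. No strand setting is given in the sources used here, so reads of Col5a1 and of the 2 antisense transcripts that overlap it cannot be told apart, and the table lists neither. Column names carry the batch number, which is the match to the samples.

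Counts were summed per batch and class where a class had at least 3 cells, 14 sums in all. No doublet caller was run, because cells were picked by hand. The sums were tested in edgeR 4.0.16 (R 4.3.3) with filterByExpr, TMM scaling, batch as a block and the quasi-likelihood test, adjusted by Benjamini-Hochberg over all genes tested at 0.05. Batch was kept as a block because every pair of sums of the same batch deviated together (r across 13215 genes 0.108 to 0.493 in 13 pairs), with -0.394 to 0.125 in the 52 pairs of sums of other batches, ranges that overlap slightly. Stage fits had no block, and the test of the difference between classes had one. The printed CPM are taken over the total UMIs of the cell or sum, without TMM. DESeq2 1.42.0 and limma 3.58.1 were alternatives. The fits were also run on counts simulated without differences between batches, unlike these data, and no outcome of that run is reported here. Exact tests, intervals and thinning used scipy 1.17.1 under Python 3.11.15. The other genes named from each list were up to 4 per direction with the largest called change and up to 2 with the highest mean level among those not called. One of the genes closest to the members is not reported here. Of 31 symbols in the list of hydroxylation, folding and export genes, 25 were in the table. Sums held 917054 to 27053842 UMIs, so 3 counts correspond to 3.27 CPM or less.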

Additional observations from a re-analysis of the deposited data

Results flagged for a closer look

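A batch stood apart from the others in 4 of the 75 gene and class combinations examined, by Dixon's test at the 95% level, where chance gives about 5%, or 1 in 20. Timp3, a gene that inhibits matrix proteases, stood at 186.8 CPM in the Prrx1 cells of E9.5 replicate 1, against 27.7 to 53.9 CPM in the other batches. The integrin gene Itgb1 stood at 309.7 CPM and Col12a1 at 9.826 CPM in the rest of E9.5 replicate 1, against 71.2 to 119 CPM and 0 to 2.54 CPM in the rest of the other batches. That sum is of 8 cells, in which the endothelial markers summed to 1871 CPM. The receptor gene Tgfbr1 stood at 120.6 CPM in the Sox10 cells of E10 replicate 3, against 76.3 to 82.0 CPM in the other 3 sums. None of the members was among these.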

How the results depend on the processing

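In Prrx1 against Sox10 cells the 641 calls became 1416 by DESeq2, 1036 with no filter on low counts and 979 with equal weight of cells in limma. Prrx1 cells against the rest had 486 calls, which became 1104 by DESeq2, 935 with no filter and 758 with at least 10 cells per sum. They became 94 or 118 with cells at Alas2 of at least 100 or 500 CPM left out of the rest. The second limit was added after the data were seen, as the first marked most cells of every class in E10 replicate 2. Sox10 cells against the rest had 949 calls, which became 1769 by DESeq2, 330 and 394 at these Alas2 limits and 382 with only those classes in the fit. Without the batch as a replicate block the counts in the same order were 359, 64 and 354, and the test of the difference between the stage changes stayed at 0. No paired analysis was possible for E10 against E9.5 because each batch holds 1 stage. Leaving out each batch in turn gave 320 to 655, 166 to 521 and 394 to 910 calls. The lowest came without E10 replicate 3 in the first comparison and without E9.5 replicate 2 in the others, and the counts were 392 and 399 without E9.5 replicate 2 or E10 replicate 1 in the first, 293 and 211 without E10 replicate 2 or 3 in the second, and 631 and 418 without these in the third. For stage in Prrx1 cells the count of 0 became 120 by DESeq2, 155 with no filter and 0 to 12 over the left-out batches. In the rest DESeq2 called 184, and the difference between stage changes had 11 by DESeq2, 6 with no filter and 0 to 20 over the left-out batches. Equal weight of cells also shifted the split of calls, to 222 higher and 141 lower in Prrx1 cells against the rest (199 and 287 in the summed fit) and to 464 higher and 388 lower in Sox10 cells against the rest (392 and 557). The cause of these shifts was not tested.

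Over all members, comparisons and alternatives, 464 values kept direction and side of the threshold, 7 calls were lost, 9 were gained and 30 changed direction, none of them a called one. Over the left-out batches Col1a2 ran from -0.518 to 0.015 in Prrx1 against Sox10 cells, and Col3a1 from -0.904 to 0.017 in Sox10 cells against the rest, on the log2 scale. For stage in Prrx1 cells the left-out batches gave -0.746 to 2.159 for Col1a2, -0.081 to 0.702 for Col3a1 and -0.717 to 1.106 for Col5a2. Col1a2 was at -0.005 with Prrx1 of at least 50 CPM and Col5a2 at 0.231 with equal weight of cells. For stage in the rest they gave -1.221 to 0.141 for Col1a1, -1.122 to 1.058 for Col1a2, -1.540 to 1.061 for Col3a1 and -1.079 to 0.890 for Col5a1. A minimum of 10 cells, which drops E9.5 replicate 1, gave 0.141, 1.058, 1.061 and 0.890, while Col1a1 was at 0.094 with Prrx1 of at least 50 CPM and Col5a1 at 0.264 with equal weight. For the difference between stage changes they gave -1.754 to 0.994 for Col1a1, -0.020 to 1.910 for Col5a1 and -0.365 to 1.214 for Col5a2. There Col1a1 was at 0.173 with equal weight and 0.911 at the Alas2 limit of 100 CPM, and a minimum of 10 cells gave -0.021 for Col5a1 and -0.366 for Col5a2.

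Shares of cells with a UMI depend on depth. Without thinning they were 91.27%, 60.71% and 76.81% for Col1a1 in Prrx1 cells, Sox10 cells and the rest, 97.62%, 96.43% and 97.83% for Col1a2, 96.43% in Sox10 cells and 97.1% in the rest for Col3a1, 84.92%, 92.86% and 81.88% for Col5a1, and 76.98%, 92.86% and 78.26% for Col5a2. With cells of 5000 UMIs or more thinned to 5000 they were 37.69%, 0% and 11.81% for Col1a1, 67.69% in Prrx1 cells and 22.92% in the rest for Col1a2, 79.23%, 28.57% and 26.39% for Col3a1, 29.23%, 42.86% and 11.11% for Col5a1, and 18.46%, 28.57% and 6.25% for Col5a2. A share of 0 of 28 cells has an exact 95% interval up to 12.3%. The share of Prrx1 cells kept its direction under the 8 alternatives tried. A minimum of 10 cells per sum leaves no Sox10 sum, so both comparisons of Sox10 cells gave no value there. Keeping repeated wells changed nothing, as none had 30000 UMIs. The Sox10 sums rest on 3 to 9 cells each, which limits the precision of each level, and the depth of a sum cannot show a transcript under 3 counts.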

Other observations

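The other collagen genes were also set between Sox10 cells and the rest, a comparison added after the data were seen. Of all 11847 genes tested there, 8.01% were called, 3.31% higher and 4.7% lower in Sox10 cells. In a list of 13 tested genes, 1 call is a share near this. Of 6 tested collagen receptor genes, 1 was called, Ddr1, higher in Sox10 cells at 89.6 ± 54.3 CPM (SD, n = 4 batches), against 19.5 ± 14.02 CPM in the rest (SD, n = 5), with a log2 fold change of 2.38 (SE 0.61, adjusted p 0.0250, edgeR) and higher in 3 of 4 batches. Of 8 tested genes of propeptide cleavage and cross-linking, 1 was called, Pcolce, lower in Sox10 cells at 23.2 ± 21.2 CPM, against 50.5 ± 47.4 CPM in the rest (log2 fold change -1.54, SE 0.38, adjusted p 0.0205, edgeR). Of 13 tested fibril-associated collagens and small proteoglycans, 1 was called, the cartilage collagen gene Col9a3, higher in Sox10 cells by 2.67 (SE 0.78, adjusted p 0.0443, edgeR). Of 13 tested TGF-beta genes, 1 was called, the signal mediator gene Smad4, higher in Sox10 cells at 103 ± 26.7 CPM, against 58.1 ± 34.7 CPM in the rest (log2 fold change 0.88, SE 0.26, adjusted p 0.0465, edgeR). Each of these 4 calls ended without E9.5 replicate 2 or E10 replicate 3, and without the batch block, where the adjusted p was 0.0945 for Ddr1, 0.277 for Pcolce, 0.164 for Col9a3 and 0.329 for Smad4. With cells at Alas2 of 100 or 500 CPM or more left out of the rest the adjusted p was 0.112 and 0.0936 for Ddr1, 0.137 and 0.109 for Col9a3, and 0.179 and 0.142 for Smad4. The calls of Ddr1 and Pcolce also ended without E9.5 replicate 1. Those of Ddr1 and Col9a3 ended without E10 replicate 2, that of Col9a3 also without E10 replicate 1, and that of Smad4 without E9.5 replicate 1 or E10 replicate 2.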
